A study of Mus musculus with 62 samples.

Results

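The genes described here encode the proteins of the cytosolic ribosome. They were chosen by symbol alone: every gene of the deposited table whose symbol names a large-subunit protein (Rpl), a small-subunit protein (Rps), a protein of the acidic stalk (Rplp0, Rplp1, Rplp2) or Rpsa was taken, together with the numbered paralogs such as Rpl22l1. The rule found 87 members among 47643 genes, and 81 of them, 49 of the large and 32 of the small subunit, averaged at least 1 TPM and were tested. TPM is a read count divided by length and scaled to a common sum. It is a share of each library's total, so a shift in other RNA moves it as well. Its order between genes depends on the length used.

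The libraries came from the neocortex of female mice aged 2 months at injection. The tumour-bearing arms received melanoma cells that cause cachexia (CAC) or melanoma cells that do not (NCAC), and the mock-injected arm (Con) received none. Tissue was taken at 2, 4, 6 and 8 weeks after injection, with 7 libraries in CAC at 8 weeks and 5 in every other group, 62 in all. The strain is uncertain, because the sample labels give C57BL6/J and the series' design text gives NCI Ath/nude mice. The labels call the libraries biological replicates, but they do not tie each library to an animal, so p-values measure the spread between these libraries.

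The ribosome joins a small subunit, which reads the messenger RNA, to a large subunit, which forms the peptide bonds. Each subunit is a core of ribosomal RNA dressed with many small proteins, and the genes for these proteins are among the most highly expressed in any cell, neurons included. In vertebrates their messenger RNAs typically begin with a C followed by a run of C and U (the 5′ terminal oligopyrimidine motif), through which the kinase complex mTORC1 controls their translation together.

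Estimated depth was 44.9 to 50.6 M reads per library (median 48.1), so all groups had a like counting precision. All 12 markers of the neocortex were above 0 in every library. Excitatory neuron Slc17a7 averaged 1062 TPM (529 to 1246). Summed over each list, the markers of other tissues varied widely between libraries: 20.1 to 3104 TPM for choroid plexus, 157 to 22530 TPM for erythroid cells, 197 to 2531 TPM for striatum, 94.6 to 638 TPM for thalamus, 9.47 to 114 TPM for olfactory bulb and 5 to 3761 TPM for hypothalamus and pituitary. Of the defining genes, Gh was at 0 in 47 libraries, the lymphocyte genes Cd3e and Cd3g in 47 and 55. Libraries that stood apart were CAC replicate 3 at 8 weeks (erythroid), CAC replicate 1 at 4 weeks (striatum low) and Con replicate 5 at 2 weeks (thalamus, hypothalamus and pituitary), and results that turn on them are given without them too. The highest lymphocyte marker sums were in Con replicate 5 at 8 weeks (929 TPM) and Con replicate 1 at 6 weeks (234 TPM), which were left out only singly. All libraries of week 2, all CAC libraries and 4 of 5 NCAC libraries of week 4 were sequenced in lane 3 and the others in lane 4, so at 4 weeks the lane and the comparison with Con can hardly be told apart.

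Across the series, ribosomal protein messenger RNA made up 3.10% to 3.95% of all TPM in a library, a summed 30985 to 39491 TPM. The plot of sums by group shows that the spread within groups was about as wide as the differences between them. The large-subunit genes gave 1.400 to 1.537 times the summed TPM of the small-subunit genes (mean 1.449 ± 0.033, SD, n = 62). Group means of this ratio ran from 1.426 in CAC at 6 weeks to 1.490 in NCAC at 2 weeks.

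**Figure D1:**
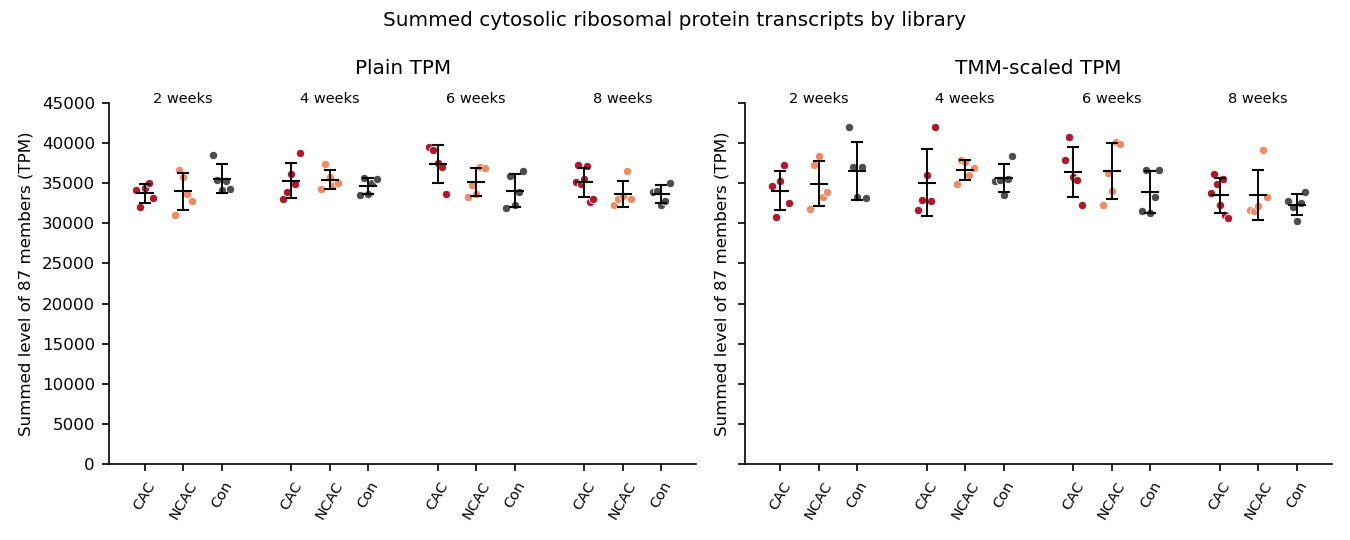
Summed TPM of the ribosomal protein genes in each library (points) with the group mean and SD (bars), by week and arm, as deposited (left) and after trimmed-mean scaling (right). The sums of CAC at 6 weeks reach the highest deposited value of the series, 39491 TPM, but the lowest library of that group, at 33581 TPM, lies within the range of Con.

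Single members differed far more in level than the whole set did between libraries. Mean levels over all libraries ran from 23.7 to 2546 TPM with a median of 326 TPM. The highest were Rplp1, a stalk protein, at 2546 TPM (chr9:61913284-61914542 in GRCm38), the small-subunit protein Rps15 at 1479 TPM and Rps29 at 1217 TPM. The lowest tested were the large-subunit Rpl27 at 23.7 TPM, the paralog Rps27l at 27.2 TPM and Rps18 at 41.9 TPM. Merged annotated exons of the members ran from 383 to 6270 bases, so this order depends on the length by which reads were divided. For the proteins best known for roles beyond the core, the stalk proteins Rplp0 and Rplp2 averaged 318 and 197 TPM, Rpsa (also known as the laminin receptor) 676 TPM, the S6 kinase substrate Rps6 425 TPM, and Rpl5 and Rpl11, which can bind the Trp53 regulator Mdm2, 184 and 226 TPM. Within groups the members varied little: the SD on the log2 scale had a median of 0.097 over the members and was smallest for Rpl22 (0.045) and largest for Rps26 (2.02).

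The members that were not tested were those low or silent in cortex. Rpl3l, Rpl39l and Rpl6l averaged 0.464, 0.322 and 0.135 TPM. Rpl10l, Rps4l and Rps12l1 were listed at 0 in all 62 libraries. The annotation calls Rpl6l, Rps4l and Rps12l1 processed pseudogenes. Among the paralogs that were tested, Rpl22l1 exceeded its parent in TPM. It averaged 159 TPM against 91.1 TPM for Rpl22, and was 147% to 207% of it in single libraries. That excess rests on the merged exon lengths, 1989 bases for Rpl22l1 and 2911 for Rpl22. Rescaled to the length of 1 principal transcript per gene (552 and 474 bases), the means were 574 and 560 TPM, about equal. All paralog percentages given here depend on length in this way. Rpl36al, at 116 TPM, was 64.2% to 80.8% of Rpl36a at 159 TPM. Rpl7l1, at 43.3 TPM, was 15.2% to 20.3% of Rpl7 at 244 TPM, and Rps27l was 5.24% to 11.8% of Rps27 at 357 TPM. The paralogs Rpl3l and Rpl39l, known for expression in muscle and testis, had a median of 0.134% and 0.129% of their parents Rpl3 and Rpl39.

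Of the 87 members, 64 (73.6%) had a start site in the RefSeq promoter table of GRCm38.p6, as had 13 of the 20 members that passed the test in any comparison below. Some of these 13 are shown here as 30 bases of the transcribed strand, with 15 bases before the start; capitals mark an uninterrupted run of C and T that opens with C at the first transcribed base, the DNA form of the motif described above. Rpl10 and Rpl7l1 also rose in CAC, but had no such run at their start and are not shown. All of those shown rose in CAC.
Rps18, chr17:33955651-33955680, minus strand: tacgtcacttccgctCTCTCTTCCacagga
Rps15a, chr7:118116133-118116162, minus strand: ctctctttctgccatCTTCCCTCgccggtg
Rpl6, chr5:121204486-121204515, plus strand: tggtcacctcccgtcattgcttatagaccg
Rps4x, chrX:102189377-102189406, minus strand: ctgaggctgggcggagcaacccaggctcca
Rpl4, chr9:64173372-64173401, plus strand: ttccttttcctgtgggagcagccgggtaga

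A C followed by 4 bases that are each C or T at the first transcribed base was found on the gene's strand at 2 of the 13 called members in the table (Rps18 and Rps15a) and at 2.51% of all 32851 starts. The first start listed for a gene was used, and a motif a few bases away would be missed. Because fewer than 80% of the members had a start, no share over the members is given.

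Differences below are log2 differences on the log2(TPM + 1) scale, tested with limma over all 14494 tested genes with Benjamini-Hochberg adjustment, and a call is an adjusted p under 0.05. Counts of members at an unadjusted p under 0.05 are given without the share of all genes at that level. Such counts do not show whether the members moved more than other genes. Over the 12 comparisons of arms within a week, 20 members made 34 calls, and all but 1 of the 34 were higher in CAC at 6 or 8 weeks than in Con or NCAC. Trimmed-mean scaling (TMM), which rescales each library so that most genes do not differ, gave 3 calls in all, of which 2 (Rpl10 and Rps14) were among the 34 and 1 (Rpl7l1) was not. Bulk tissue cannot tell fewer cells of a type apart from less RNA per cell.

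**Figure D2:**
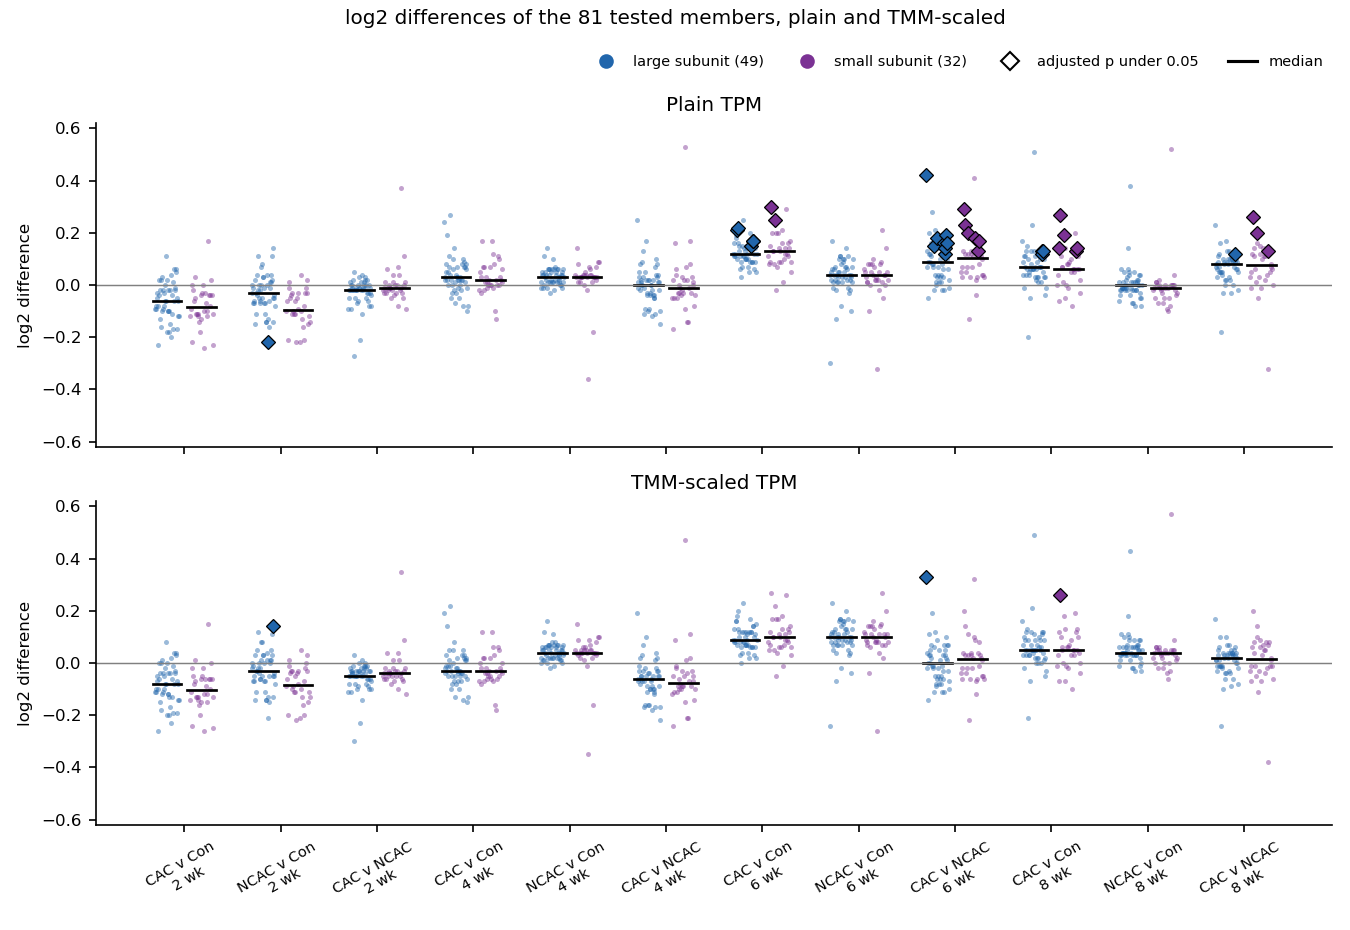
Log2 difference of each of the 81 tested members (points, large and small subunit apart, diamonds for those called) with the median of each subunit (lines), in the 12 comparisons of arms, as deposited (top) and after trimmed-mean scaling (bottom). Rps26 lies beyond the axis in NCAC against Con at 2 weeks, CAC against NCAC at 2 weeks and all 3 comparisons at 8 weeks; the deposited medians lie highest in CAC against Con at 6 weeks, at 0.12 and 0.13.

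At 2 weeks most ribosomal protein genes had differences below 0 in both tumour-bearing arms, and 1 of them fell in NCAC. Sums were 34083, 31969, 34347, 34981 and 33187 TPM in CAC, 30985, 36680, 35715, 33606 and 32755 TPM in NCAC, and 38529, 35436, 34171, 35310 and 34316 TPM in Con; the arms overlapped. The members' median difference was -0.06 in CAC against Con, with 15 of 81 members above 0, while the median of all genes was 0.04. No member passed the test there, as deposited (4.28% of all genes did) or under TMM (4.64%), although 15 had an unadjusted p under 0.05. In NCAC against Con the members' median was -0.05 (0.02 over all genes). There 1 member, Rpl37, fell, where 8.71% of all genes were called and 2.84% were lower. The 2 comparisons share the Con libraries.

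Rpl37, a zinc-binding protein of the large subunit, had 533, 509, 564, 563 and 557 TPM in CAC, 498, 553, 601, 528 and 527 TPM in NCAC, and 729, 630, 605, 602 and 584 TPM in Con. Every CAC library lay below every Con library, while NCAC overlapped Con. The difference was -0.22 (SE 0.07, adjusted p 0.0366 by limma) in NCAC and -0.20 (SE 0.07, adjusted p 0.0599 by limma) in CAC. With the near-identical copy Rpl37rt added, the differences were -0.18 and -0.17 and neither passed the test. The call in NCAC was also lost without NCAC replicate 1, 2 or 5 or Con replicate 1 or 2, and without NCAC replicate 3 the members called numbered 2. Rpl9, of the large subunit, had 318, 299, 316, 349 and 310 TPM in CAC and 397, 369, 350, 341 and 332 TPM in Con, with overlap (difference -0.17, SE 0.05, adjusted p 0.052 by limma). Without CAC replicate 4 or Con replicate 4, 5 and 2 members were called in CAC against Con, and the mitochondrially encoded share of TPM moved too: it averaged 27.1% in CAC, 27% in NCAC and 30.2% in Con, and on TPM rescaled without those genes 6 members were called in CAC and 4 in NCAC against Con (3.19% and 9.11% of all genes). Without the 3 libraries that stood apart, Con replicate 5 among them, 2 members were called in CAC and 5 in NCAC against Con (2.41% and 8.58% of all genes). On the higher side the smallest p-values in CAC against Con belonged to Rpl5 (0.06, adjusted p 0.32 by limma) and Rpl29 (0.11, adjusted p 0.469). Under TMM scaling the member called in NCAC against Con was the paralog Rpl7l1, which was higher (0.14, SE 0.05, adjusted p 0.0311 by limma), where 14.4% of all genes were called.

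CAC and NCAC did not differ detectably at 2 weeks: no member and no gene was called by limma as deposited or under TMM (0% of all genes), and 1 member had an unadjusted p under 0.05. The members' median difference was -0.01 and that of all genes 0.01. The members named by p-value were Rpl35 (-0.11) and Rpl21 (-0.27) on the lower side, and Rps3a1 (0.37) and Rpl22 (0.05) on the higher side, all at an adjusted p of 0.998 by limma.

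At 4 weeks no member passed the test in any of the 3 comparisons. Sums were 33008, 33879, 36080, 34850 and 38713 TPM in CAC, 34212, 37310, 35707, 34775 and 35015 TPM in NCAC and 33559, 35664, 33624, 35030 and 35469 TPM in Con, again overlapping. Across all genes 0.0414% were called in CAC against Con, 0% in NCAC against Con and 0.0069% in CAC against NCAC. Over all genes the medians were 0.04, -0.01 and 0.05 as deposited, with 63.9%, 41.4% and 66.8% above 0, and -0.01, -0.00 and -0.01 under TMM. The unadjusted p was under 0.05 for 10, 0 and 5 members, and the members' medians were 0.02, 0.03 and -0.00 as deposited. Under TMM, which gave no call either, the direction turned in CAC against Con, with a median of -0.03 and 27 of 81 members above 0 where 59 were as deposited, and in CAC against NCAC the median was -0.07 with 13 above 0 where 40 were; in NCAC against Con it was 0.04.

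Rps4x and Rpl10, both encoded on the X chromosome, were named by p-value in CAC at 4 weeks. Rps4x, a small-subunit protein, had 472, 448, 422, 423 and 452 TPM in CAC, 400, 423, 420, 433 and 417 TPM in NCAC and 395, 405, 411, 418 and 421 TPM in Con. All CAC libraries lay above all Con libraries (0.11, adjusted p 0.25 by limma). Rpl10, which joins the large subunit late in its assembly near the site of peptide bond formation, had 72.9, 60.8, 61.2, 63.1 and 65.4 TPM in CAC, 48.5, 61.6, 53.2, 52.9 and 55.2 TPM in NCAC and 63.2, 54.3, 49.4, 48.8 and 57.7 TPM in Con. It overlapped in both comparisons (0.24 against Con, adjusted p 0.229; 0.25 against NCAC, adjusted p 0.134, by limma), and with its copies added the difference was 0.04 from Con (adjusted p 0.705) and -0.00 from NCAC. On the lower side in CAC against Con, Rps29 differed by -0.13 (adjusted p 0.536 by limma) and Rplp1 by -0.10 (adjusted p 0.63). In CAC against NCAC, Rpl5 differed by 0.10 (adjusted p 0.169), Rplp1 by -0.15 (adjusted p 0.319) and Rps12 by -0.17 (adjusted p 0.339), again by limma. In NCAC against Con, Rpl32 (0.10), Rps13 (0.08), Rps3a1 (-0.18) and Rps25 (-0.02) were the members named by p-value, each with an adjusted p of 1 by limma.

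At 6 weeks ribosomal protein genes of both subunits were higher in CAC than in Con as deposited. Under TMM the members' median against Con was 0.09 in CAC and 0.10 in NCAC, and 0.00 in CAC against NCAC. As deposited, 7 members rose in CAC against Con and none fell. They were 5 of the large subunit (Rpl4, Rpl6, Rpl7 and Rpl17 among them) and 2 of the small subunit (Rps14 and Rps18). These were 8.64% of the tested members, where 1.2% of all genes were called higher and 1.63% in either direction. The members' median difference was 0.12, with 0.12 for the large and 0.13 for the small subunit, and 80 of 81 members lay above 0, against a median of 0.03 over all genes. Sums were 39491, 39136, 37474, 36971 and 33581 TPM in CAC, 33256, 34763, 33658, 36972 and 36894 TPM in NCAC and 31862, 35818, 32235, 33872 and 36515 TPM in Con. Of the CAC libraries 4 lay above every Con library, and the fifth lay inside the range of Con.

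Rps14, which lies near the decoding site of the small subunit, had 434, 461, 375, 418 and 359 TPM in CAC, 325, 334, 324, 338 and 351 TPM in NCAC, and 322, 351, 294, 323 and 370 TPM in Con. CAC lay wholly above NCAC, and 4 of its 5 libraries above all of Con. The difference from Con was 0.30 (SE 0.07, adjusted p 0.00704 by limma). Rpl7, on the outer face of the large subunit, had 282, 276, 260, 265 and 251 TPM in CAC, 235, 229, 228, 245 and 234 TPM in NCAC, and 245, 238, 225, 231 and 250 TPM in Con. Here CAC lay above both other arms with no overlap (0.17 against Con, SE 0.04, adjusted p 0.0135 by limma). Rps18, in the head of the small subunit, had 48.3, 47.6, 45, 51.9 and 45.1 TPM in CAC, 39.5, 42, 39, 43.8 and 42.2 TPM in NCAC, and 37.8, 40.1, 40.6, 38.6 and 41.8 TPM in Con, also without overlap (0.25 against Con, SE 0.06, adjusted p 0.0238 by limma).

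The other called members were of the large subunit. Rpl4, which reaches into the tunnel through which the new protein leaves, had 1095, 1059, 1038, 1056 and 1009.6 TPM in CAC and 960, 966, 889, 919 and 1009 TPM in Con; the lowest CAC library lay just above the highest Con library (0.15, adjusted p 0.0268 by limma). Rpl17, near the mouth of that tunnel, had 1296, 1294, 1217, 1271 and 1127 TPM in CAC and 1060.2, 1105, 994, 1044 and 1177 TPM in Con, with overlap of single libraries (0.21, adjusted p 0.0203 by limma). Rpl6 had 359, 344, 323, 333 and 311 TPM in CAC and 296, 306, 283, 279 and 317 TPM in Con (0.17, adjusted p 0.0201 by limma). The lowest CAC library overlapped Con. In all, 3 of the 7 called members did not overlap between the arms, where 73.6% of the 174 genes called higher and 3.69% of all tested genes did not.

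Members best known for other roles were not called in CAC against Con at 6 weeks. The stalk proteins Rplp0, Rplp1 and Rplp2 differed by 0.17, 0.05 and 0.12 (adjusted p 0.134, 0.841 and 0.549 by limma). Rpsa differed by 0.05 (adjusted p 0.838 by limma), Rps6 by 0.11 (adjusted p 0.194), Rpl5 by 0.09 (adjusted p 0.261) and Rpl11 by 0.11 (adjusted p 0.261). The highest and lowest members gave 0.20 for Rps15, 0.12 for Rps29 and 0.25 for Rpl27 (adjusted p 0.129, 0.592 and 0.322 by limma). Among parents and paralogs, Rpl22l1 differed by 0.11 and Rpl22 by 0.06, Rps27l by 0.01 and Rps27 by 0.21, Rpl36al by 0.05 and Rpl36a by 0.07, and Rpl7l1 by 0.06, with none called.

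The 7 calls depended on scaling and on single libraries. Under TMM none passed the test (1.48% of all genes did; 9 members had an unadjusted p under 0.05), with a members' median of 0.09 and 78 of 81 above 0; summed TMM-scaled values were 36404 ± 3143 in CAC, 36497 ± 3479 in NCAC and 33879 ± 2653 in Con (SD, n = 5 each). Leaving out CAC replicate 1, 2, 4 or 5 gave 0, 3, 4 and 17 calls, and leaving out Con replicate 3, 4 or 5 gave 1, 3 and 12. The shares of all genes in these refits are not given, so the counts show only that the calls hung on single libraries. Mitochondrially encoded genes took 24.4% ± 2.23 of TPM in CAC, 27.2% ± 2 in NCAC and 26.5% ± 0.798 in Con, and with TPM rescaled without them 1 member was called against Con (1.48% of all genes). Markers of oligodendrocytes also moved with the arms: their sums were 1909 to 2129 TPM in CAC, 2172 to 2821 TPM in NCAC and 1995 to 2654 TPM in Con. Of 8 markers 2 fell against Con and 6 against NCAC, where 62 and 232 of 14494 genes fell. Endothelial marker sums were 235 to 296 TPM in CAC, 195 to 242 TPM in NCAC and 212 to 237 TPM in Con, and lymphocyte marker sums 21.9 to 39 TPM in CAC, 52.8 to 59.9 TPM in NCAC and 51.6 to 234 TPM in Con. The part of these cell types in the ribosomal protein differences was not tested.

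NCAC did not differ detectably from Con at 6 weeks. No member was called by limma as deposited or under TMM (0% of all genes as deposited), and 2 had an unadjusted p under 0.05. The members' median was 0.04 as deposited and 0.10 under TMM, beside -0.05 and 0.00 for all genes. The members named by p-value were Rpl13 (0.17) and Rpl37a (0.14) on the higher side and Rpl10 (-0.30) and Rpl7l1 (-0.10) on the lower side, all at an adjusted p of 0.662 by limma. Rpl10 did not overlap between the arms, and with its copies added it differed by -0.01.

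Against NCAC, 14 members rose in CAC at 6 weeks and none fell, 8 of the large and 6 of the small subunit. These were 17.3% of the tested members, where 8.05% of all genes were called higher and 9.65% in either direction. The members' median was 0.09 and that of all genes 0.08, and 74 members lay above 0. Rpl10 had 73.1, 71.6, 58, 77.1 and 61.9 TPM in CAC and 47.6, 52.8, 46.6, 55.8 and 50.3 TPM in NCAC, without overlap (0.42, SE 0.08, adjusted p 0.00108 by limma). Most reads of Rpl10 and its copies lay in Rpl10-ps3, though, at 5.63 times those of Rpl10. With the copies added the difference was 0.10 (adjusted p 0.106 by limma). Rps4x had 465, 485, 438, 449 and 424 TPM in CAC and 389, 392, 403, 416 and 413 TPM in NCAC, without overlap (0.17, adjusted p 0.00763 by limma). Rps14 rose by 0.29 (adjusted p 0.00601 by limma), Rpl7 by 0.19 (adjusted p 0.00256) and Rpl4 by 0.16 (adjusted p 0.00669), with Rpl4 at 925, 932, 920, 953 and 963 TPM in NCAC, and in none of these 3 did the arms overlap.

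The other called members in this comparison changed by 0.12 to 0.23. They were Rps27a (0.18, adjusted p 0.0162 by limma), whose protein is made fused to ubiquitin, Rps15a (0.23, adjusted p 0.0246), Rps18 (0.20, adjusted p 0.0375), Rps3 (0.13, adjusted p 0.0445), which lines the entry of the messenger RNA, Rpl6 (0.14, adjusted p 0.0348), Rpl5 (0.12, adjusted p 0.0356), Rpl7l1 (0.16, adjusted p 0.0367), Rpl3 (0.18, adjusted p 0.0385) and Rpl24 (0.15, adjusted p 0.0456), again from limma. In all, 7 of the 14 did not overlap between the arms, where 41.8% of the 1167 genes called higher and 6.74% of all tested genes did not. Rps15a had 84.4, 65.2, 73.9, 79 and 64.4 TPM in CAC and 59.8, 59, 65.4, 62.2 and 64.9 TPM in NCAC, so 3 of the CAC libraries lay above all NCAC libraries.

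Under TMM the members' median in CAC against NCAC was 0.00, 41 of 81 members lay above 0 and 1 was called, Rpl10 (0.33, SE 0.09, adjusted p 0.016 by limma), where 4.76% of all genes were called. On TPM rescaled without mitochondrially encoded genes 3 members were called (5.34% of all genes). As deposited, the count was 5 without CAC replicate 1, 6 without CAC replicate 4, and 6, 7, 8 and 8 without NCAC replicate 2, 3, 4 or 5.

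**Figure D3:**
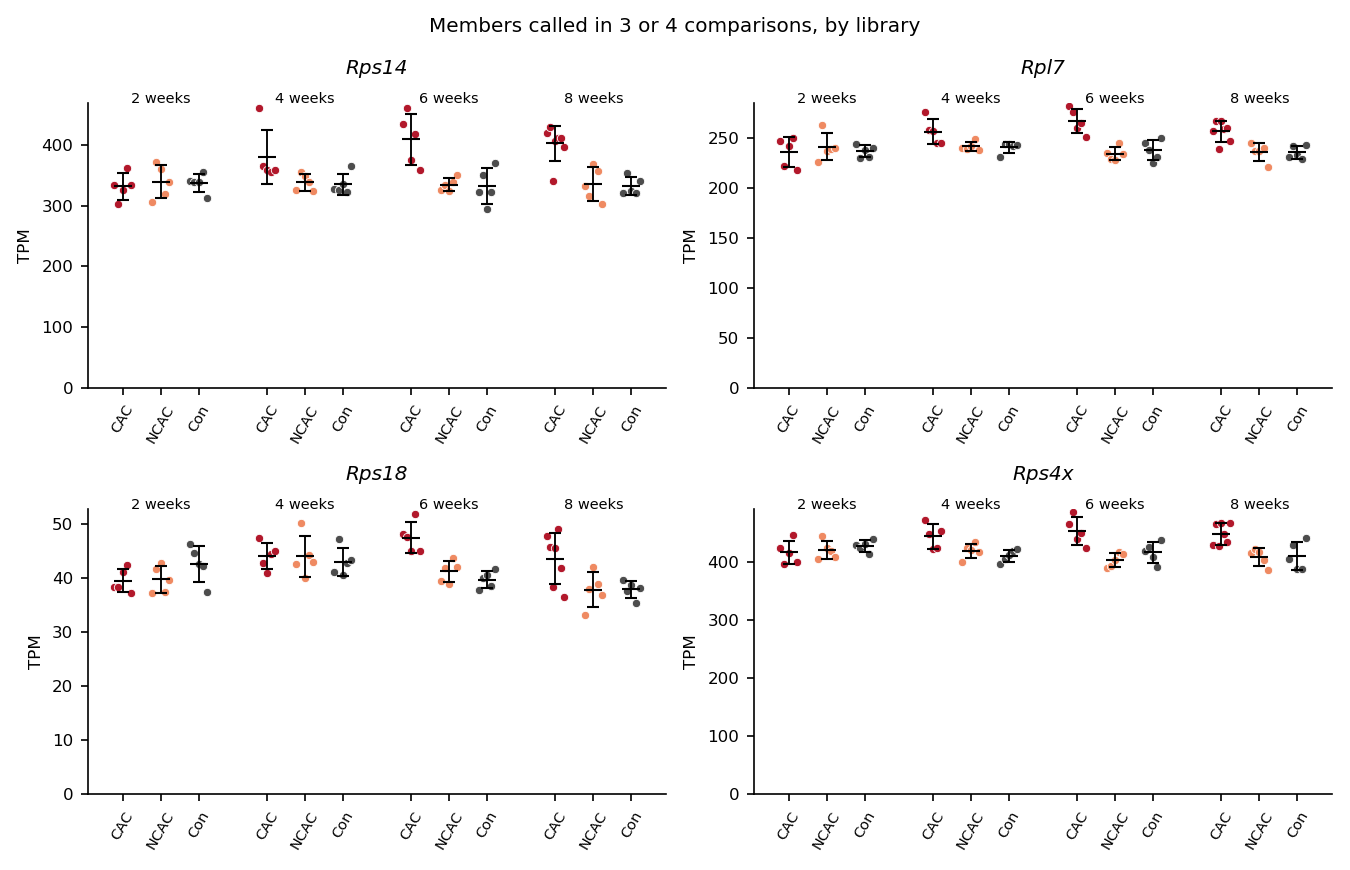
TPM per library (points) of Rps14, Rpl7, Rps18 and Rps4x, with the mean and SD of each group (bars), by week and arm. In Rpl7 at 6 weeks the 5 CAC libraries lie between 251 and 282 TPM, above all NCAC and Con libraries.

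At 8 weeks 8 members rose in CAC against Con and none fell, 3 of the large subunit (Rpl6, Rpl7 and Rpl7a) and 5 of the small subunit (Rps4x, Rps13, Rps14 and Rps18 among them). They were 9.88% of the tested members, where 4.91% of all genes were called higher and 8.6% in either direction. The members' median was 0.06, with 0.07 for the large and 0.06 for the small subunit, and 70 of 81 lay above 0, against 0.02 over all genes. Sums were 32641 to 37271 TPM (median 35160) in CAC, and averaged 35090 ± 1804 TPM in CAC (SD, n = 7), 33625 ± 1662 TPM in NCAC and 33612 ± 1086 TPM in Con (SD, n = 5 each), with overlap.

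Rps14 had 341 to 430 TPM (median 411) in CAC, 302 to 369 TPM (median 333) in NCAC and 321 to 353 TPM (median 324) in Con. All but 1 of the CAC libraries lay above all others, and the exception, at 341 TPM, was CAC replicate 3, whose erythroid markers stood apart. The difference was 0.27 from Con (SE 0.06, adjusted p 0.00222 by limma) and 0.26 from NCAC (adjusted p 0.00474). Rps4x had 426 to 467 TPM (median 447) in CAC, 385 to 422 TPM (median 414) in NCAC and 387 to 440 TPM (median 404) in Con, overlapping with Con only (0.13 from Con, adjusted p 0.0169; 0.13 from NCAC, adjusted p 0.0166, by limma). Rpl7 had 239 to 267 TPM (median 259) in CAC, 221 to 245 TPM (median 237) in NCAC and 229 to 243 TPM (median 233) in Con, with overlap in both (0.12 from Con, adjusted p 0.025; 0.12 from NCAC, adjusted p 0.0327, by limma).

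Rpl6 and Rpl7a were the 2 of 8 called members that did not overlap between CAC and Con, where 21.9% of the 712 genes called higher and 3.23% of all tested genes did not. Rpl6 had 309 to 339 TPM (median 315) in CAC and 285 to 306 TPM (median 288) in Con (0.13, adjusted p 0.0282 by limma). Rpl7a had 353 to 385 TPM (median 368) in CAC and 321 to 350 TPM (median 340) in Con (0.13, adjusted p 0.0269 by limma). Rps18 had 36.6 to 49.2 TPM (median 45.6) in CAC, 33.3 to 42.2 TPM (median 38) in NCAC and 35.5 to 39.8 TPM (median 38.2) in Con, with overlap (0.19 from Con, adjusted p 0.0311; 0.20 from NCAC, adjusted p 0.0315, by limma). Rps13 had 122 to 146 TPM (median 134) in CAC and 114 to 126 TPM (median 122) in Con (0.14, adjusted p 0.0494 by limma). Rps14, Rps18, Rpl6 and Rpl7 were called at both 6 and 8 weeks, 57.1% of the 7 and 50% of the 8.

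Stalk and dual-role members were again not called in CAC against Con. Rplp0, Rplp1 and Rplp2 differed by 0.03, -0.04 and -0.01 (adjusted p 0.785, 0.808 and 0.939 by limma), Rpsa by -0.03 (adjusted p 0.872), Rps6 by 0.06 (adjusted p 0.415), Rpl5 by 0.07 (adjusted p 0.17) and Rpl11 by 0.04 (adjusted p 0.615). Rps15, Rps29 and Rpl27 differed by 0.11, 0.06 and 0.23 (adjusted p 0.333, 0.718 and 0.217 by limma).

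Against NCAC, Rps14, Rps4x, Rps18 and Rpl7 rose in CAC at 8 weeks. These 4 were 4.94% of the tested members, where 4.39% of all genes were called higher and 6.02% in either direction, so the share was near that of all genes. The members' median was 0.08, that of all genes 0.05, and Rps4x alone of the 4 did not overlap, where 15.6% of the 636 genes called higher did not. With copies added, Rps18 differed by 0.15 (adjusted p 0.112 by limma) and 3 members were called. NCAC against Con gave no call as deposited or under TMM (0% of all genes as deposited), and 1 member had an unadjusted p under 0.05 in limma. The members' median was -0.01 with 35 of 81 above 0, beside -0.04 and 34.4% for all genes. Under TMM the direction turned, to a median of 0.04 with 67 above 0. The members named by p-value there were Rps3a1 (0.52) and Rpl30 (0.38) on the higher side and Rps27l (-0.10) and Rpl37 (-0.08) on the lower, at adjusted p of 0.896 to 0.9 by limma.

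These calls too depended on scaling and on single libraries. Under TMM 1 member was called in CAC against Con, Rps14 (0.26, SE 0.07, adjusted p 0.0173 by limma; 9.25% of all genes), and none against NCAC (5.6% of all genes; 4 members at an unadjusted p under 0.05), with medians of 0.05 and 0.02. On TPM rescaled without mitochondrially encoded genes, which took 23.7% ± 0.952 of TPM in CAC, 26.0% ± 1.67 in NCAC and 25.7% ± 2.05 in Con, 1 member was called in CAC against Con and 1 against NCAC (9.21% and 5.55% of all genes). Against Con the count was 3, 2, 3 and 5 without CAC replicate 1, 2, 4 or 5, and 5, 5, 3, 1 and 5 without Con replicate 1 to 5 in turn. Against NCAC it was 2, 8 and 2 without CAC replicate 2, 3 or 4, and 2, 8 and 1 without NCAC replicate 2, 3 or 5; without the 3 libraries that stood apart, CAC replicate 3 among them, it was 12 (13.6% of all genes). Endothelial marker sums were 229 to 353 TPM in CAC, 198 to 237 TPM in NCAC and 224 to 244 TPM in Con, and lymphocyte marker sums 18.3 to 47.2 TPM in CAC, 46 to 72.3 TPM in NCAC and 58 to 929 TPM in Con. Con replicate 5 held the highest lymphocyte sum (929 TPM) and microglial sum (586 TPM). Of 7 tested microglial markers 4 fell against Con (sums of 278 to 381 TPM in CAC and 395 to 586 TPM in Con). Of 8 oligodendrocyte markers 3 fell against Con and 4 against NCAC. Of 14494 genes, 535 fell against Con and 237 against NCAC. The part of these cell types in the ribosomal protein differences was not tested.

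The change of the CAC to Con difference over time was tested directly, and no member passed the test. From 2 to 8 weeks the median change was 0.13 (-0.02 over all genes), with 75 of 81 members above 0 (44% of all genes). Of all genes 1.32% were called, and 31 members had an unadjusted p under 0.05 in limma, without a share of all genes beside it. The nearest were Rps18 (0.30, SE 0.09, adjusted p 0.0681 by limma) and Rps14 (0.30, SE 0.09, adjusted p 0.076). On the lower side Rps26 gave -0.89 (SE 1.68, adjusted p 0.908 by limma) and Rps27l -0.05 (adjusted p 0.923). Under TMM the median was 0.14, with no call (1.39% of all genes), and 12 members had an unadjusted p under 0.05. As deposited and without the 3 libraries that stood apart, 3 members were called (1.59% of all genes). From 6 to 8 weeks the median change was -0.06 with 8 members above 0, beside -0.01 and 44.9% for all genes. There were 0 calls (0% of all genes), and 1 member had an unadjusted p under 0.05 in limma. Rpl30 (0.38), Rpl10 (0.05), Rplp0 (-0.14) and Rpl21 (-0.35) were named by p-value, all at an adjusted p of 1 by limma.

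Mock-injected mice at 8 against 4 weeks gave a members' median of -0.04, with 14 of 81 above 0. Over all genes the median was 0.07, and 76% lay above 0. There were 0 calls among the members in limma (0% of all genes), and 4 members had an unadjusted p under 0.05. Under TMM the members' median was -0.13, with 3 members above 0, 0 calls and 20 at an unadjusted p under 0.05. Rps18 had 39.8, 37.7, 38.8, 35.5 and 38.2 TPM at 8 weeks and 41.2, 47.3, 40.6, 42.9 and 43.4 TPM at 4 weeks, without overlap (-0.18, adjusted p 0.277 by limma). Rpl21 (0.25), Rpl27a (-0.11) and Rps27l (0.10) were the others named (adjusted p 0.314, 0.322 and 0.554 by limma).

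**Figure D4:**
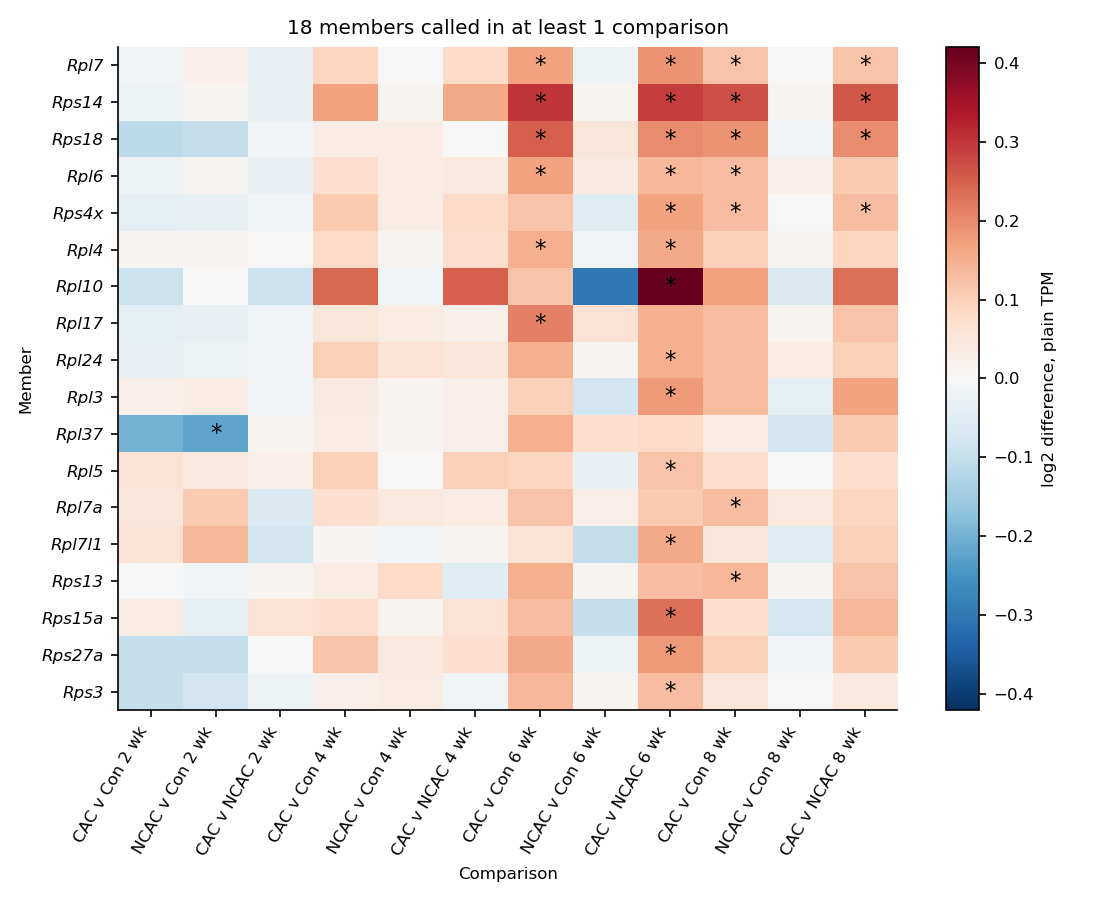
Log2 difference (colour) as deposited of 18 members called in at least 1 comparison of arms (rows) in each of the 12 comparisons (columns), with asterisks on the calls. All asterisks but that of Rpl37 lie in the columns of CAC at 6 and 8 weeks, and the darkest cell is Rpl10 in CAC against NCAC at 6 weeks, at 0.42.

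Some members had close copies in the deposited table, and this bears on their levels. Of the deposited genes, 592 were taken as copies of 78 of the members. A copy was at least 95% identical over at least 80% of the shorter sequence, or carried the member's name followed by -ps. The identity of copies taken by name alone was not measured. Of the 592, 553 were at 0 in every library and 18 averaged at least 1 TPM, for 15 members. For 5 members a copy exceeded the parent in TPM. Rpl10-ps3 had 868 TPM (755 to 971, chr9:50344201-50344968 in GRCm38) beside 57.7 TPM for Rpl10, and Rpl27-ps3 had 571 TPM beside 23.7 TPM for Rpl27. Gm6311 had 719 TPM beside 233 TPM for Rps2, Rps18-ps3 had 112 TPM beside 41.9 TPM for Rps18, and Rps12-ps3 had 522 TPM beside 514 TPM for Rps12. These copies are shorter than the merged exons of their parents, so the ratio in reads differs. By reads the ratio of copy to parent was 5.63 for Rpl10-ps3, 6.44 for Rpl27-ps3 and 1.48 for Gm6311. It was 0.499 for Rps18-ps3 and 0.248 for Rps12-ps3, which held fewer reads than their parents. The annotation calls Rpl10-ps3 and Rps12-ps3 protein-coding, and the search by identity covered pseudogene transcripts only. The sources used here do not say how reads that match both were assigned, so levels and changes of these members are uncertain.

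The copies did not all follow their parents. Rpl10-ps3 averaged 892 ± 40.8 TPM in CAC and 866 ± 21.6 TPM in NCAC at 6 weeks (SD, n = 5 each), a difference of 0.04 (SE 0.05, adjusted p 0.578 by limma), where Rpl10 differed by 0.42. Rps18-ps3 differed from Con by 0.25 at 6 weeks (SE 0.08, adjusted p 0.0902 by limma) and by 0.19 at 8 weeks (adjusted p 0.0911), the same sizes as Rps18; the call of Rps18 against NCAC at 8 weeks was lost with copies added, as given above. Adding the copies narrowed the within-group SD (log2) for Rps26 to 0.44 from 2.02, for Rpl27 to 0.09 from 0.20, for Rpl14 to 0.10 from 0.18, and for Rpl10 to 0.06 from 0.13.

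**Figure D5:**
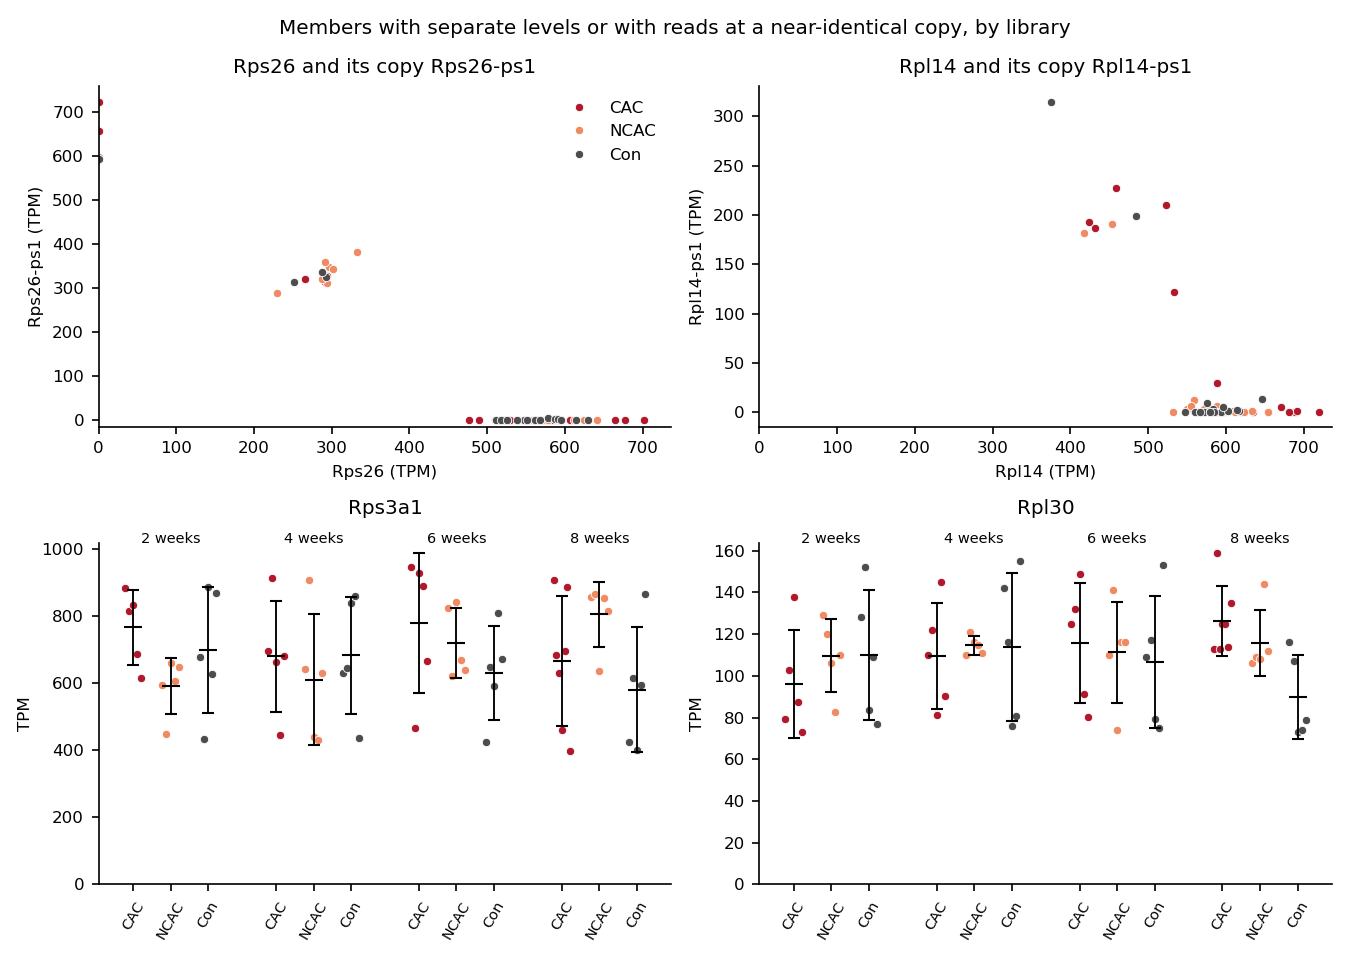
TPM per library (points, coloured by arm) of Rps26 and Rpl14 (x axes) against their near-identical copies (y axes), and of Rps3a1 and Rpl30 by week and arm with group means and SD. Rps26 is near 0 in the 4 libraries in which its copy Rps26-ps1 is highest, at 593 to 723 TPM.

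A few members fell into separate levels, by a rule chosen after their values were seen (a step of at least 12% between neighbouring values with at least 4 libraries on each side). Rps26, which contacts the messenger RNA upstream of the start codon, had 0.647 to 0.97 TPM in 4 libraries, 229 to 332 TPM in 14 and 476 to 702 TPM in 44. The 4 were CAC replicates 2 and 4 at 8 weeks, NCAC replicate 5 at 2 weeks and Con replicate 3 at 8 weeks. Its copy Rps26-ps1 was high where Rps26 was low (593 to 723 TPM in the 4 libraries, 288 to 383 TPM in the 14, and at most 4.52 TPM in the 44). With the copy added the 4 libraries still stood apart, at 173 to 211 TPM against 313 to 702 TPM.

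Rps3a1, of the small subunit, had 398 to 467 TPM in 12 libraries, 593 to 696 TPM in 28 and 811 to 946 TPM in 22, and all copies of it were at 0. NCAC at 8 weeks held 4 libraries of the highest level and 1 of the middle one, while Con at 8 weeks held 1 of the highest, 2 of the middle and 2 of the lowest. Rpl30, of the large subunit, had 73.1 to 91.5 TPM in 18 libraries and 103 to 159 TPM in 44; all 7 CAC and all 5 NCAC libraries of 8 weeks were in the upper level, against 2 of 5 Con libraries. What sets these levels was not tested, and the group means of Rps3a1, Rps26 and Rpl30 are taken over libraries of different levels.

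Other genes of translation were taken from lists of known function. Of the other genes with the 5′ oligopyrimidine motif, 18 of 19 were tested. Against NCAC at 6 weeks 3 rose in CAC, the initiation factor subunits Eif4b (0.24) and Eif3e (0.21) and Btf3 (0.16), and against Con at 8 weeks 6 rose, among them Eif3f (0.22, adjusted p 0.00839 by limma), Eif3e (0.22, adjusted p 0.0122) and Btf3 (0.15, adjusted p 0.0142). None rose against Con at 6 weeks. Of all genes, 8.05% were called higher against NCAC at 6 weeks and 4.91% against Con at 8 weeks (4.76% and 9.25% in either direction under TMM). The medians of this list were 0.06 against Con and 0.08 against NCAC at 6 weeks and 0.05 against Con at 8 weeks. Under TMM 1 gene was called against NCAC at 6 weeks, none of these 3 (adjusted p 0.155, 0.264 and 0.432 by limma), and 2 against Con at 8 weeks, where Eif3e kept its call (adjusted p 0.0232) and Eif3f and Btf3 did not (0.0604 and 0.0565).

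Of 25 ribosome biogenesis genes none was called in CAC against Con at 6 weeks, where 1.63% of all genes were. For the counts that follow, 8.05% of all genes were called higher in CAC against NCAC at 6 weeks. At 8 weeks 4.91% were called higher in CAC against Con and 4.39% against NCAC. In NCAC against Con at 2 weeks 851 of 14494 genes were called higher, and 14.4% in either direction under TMM. Against NCAC at 6 weeks 5 rose, among them Rrn3 and Polr1a of ribosomal RNA transcription and Nop58 of its modification, and against Con at 8 weeks 2 rose, nucleolin (Ncl, 0.18) and the subunit joining factor Eif6 (0.17). Under TMM the calls of Rrn3, Nop58 and Eif6 were lost (adjusted p 0.174, 0.127 and 0.0896 by limma). In NCAC against Con at 2 weeks 1 rose, Bop1 (0.25, adjusted p 0.0123 by limma), and 7 were called under TMM. Of 25 genes of mTORC1 and translation control, 5 rose in CAC over NCAC at 6 weeks, Sesn1 (0.42), Max and Eef2k among them (adjusted p 0.0244, 0.16 and 0.0579 under TMM by limma), and at 8 weeks 3 rose over Con and 3 over NCAC; Eif4a1 was called in NCAC against Con at 2 weeks. Ddit4, an inhibitor of mTORC1, had 107 ± 27.8 TPM in CAC (SD, n = 7) and 48.2 ± 4.27 TPM in Con (SD, n = 5) at 8 weeks, a difference of 1.10 (SE 0.20, adjusted p 0.000167 by limma). Sesn1, another inhibitor, had 75.8 ± 13.2 TPM in CAC and 52.7 ± 0.642 TPM in Con (0.50, adjusted p 0.000439 by limma), and the elongation factor kinase Eef2k rose as well (0.32, adjusted p 0.0303).

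The ribosome of mitochondria is built from separate nuclear genes, and 77 of these were tested. In CAC against Con 3 rose at 2 weeks, 3 at 6 weeks (Mrps26, Mrpl41 and Mrpl2) and 3 at 8 weeks (Mrpl2, Mrpl11 and Mrpl38), and 3 rose against NCAC at 6 weeks. Of all genes 3.68%, 1.2%, 4.91% and 8.05% were called higher in these comparisons. Under TMM the calls of Mrps26, Mrpl41 and Mrpl2 at 6 weeks were lost (adjusted p 0.0683, 0.0793 and 0.127 by limma). In NCAC against Con at 2 weeks 7 rose and 1 fell, where 851 and 411 of the 14494 tested genes did. The medians of this list in CAC against Con were 0.07 at 2 weeks, 0.04 at 6 weeks and 0.03 at 8 weeks, where those of the cytosolic genes were -0.06, 0.12 and 0.06.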

How the data were processed

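The authors deposited a single table of TPM values, a read count per gene divided by length and scaled to a common sum in each library. Trizol extraction, a stranded kit for messenger RNA and NovaSeq sequencing are given per the labels' protocols; the same text names LLC cells and 3 weeks, which match no group here. Reads were placed on mm10, per the submitters' processing notes. Which aligner and quantifier were used, and whether strand was counted, is not given in the sources used here; overlapping and antisense genes are therefore uncertain. Of the 47643 genes 22257 were at 0 in every library. The spacing of low values gave the depth, since 86.4% of 207422 such values were whole reads within 0.05. No 2 libraries were identical, and the highest correlation of 2 libraries was 0.9943, so each counted as 1 sample.

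Genes that averaged 1 TPM or more over the libraries entered 1 linear model over the 12 groups on the log2(TPM + 1) scale, by limma 3.58.1 (statmod 1.5.0, R 4.3.3), with a trend of variance on level; this leaves 50 residual degrees of freedom. P-values were adjusted by Benjamini-Hochberg over all tested genes within each of 15 comparisons. The pseudocount of 1 understates changes of low genes. TMM scaling trimmed 30% of the ratios and 5% of the levels. The script was tested on simulated data.

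Named were all called members where they numbered 10 or fewer, otherwise the 5 with the lowest p in each direction, and where none was called the 2 higher and 2 lower members with the lowest p; plus stalk proteins, Rpsa, Rps6, Rpl5, Rpl11, paralogs with their parents, and the 3 highest and 3 lowest members. A few members that the rule names are counted but not reported here by name. From each list of other genes up to 3 called genes per comparison were named. The other 9 members called in CAC against NCAC at 6 weeks and the members in separate levels were named after their values were seen. The members and all lists were chosen with earlier results of these data known. Copies were found with BLAST 2.17.0 among GENCODE vM21 pseudogene transcripts (95% identity, 80% coverage), or by the member's name followed by -ps. They were added after conversion to the member's exon length. Gene positions and types come from GENCODE vM21 (GRCm38). Start sites come from RefSeq; the check of start motifs over the members is void because 73.6% had a start. Tables and figures were made in Python 3.11.15 with pandas 2.3.3 and matplotlib 3.10.9. Alternatives were other scalings, a pseudocount of 0.1, no filter on level, only the groups compared, robust moderation, lane or replicate number as a term, copies added, a gene-length index as a term, and leaving out libraries.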

Additional observations from a re-analysis of the deposited data

Results flagged for a closer look

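In 264 groups of libraries examined (the members' sum and each named member in each group), 11 held a library far from the others by Dixon's criterion, where chance gives about 1 in 20. The summed TPM of the members was 36508 in NCAC replicate 4 at 8 weeks, against 32241 to 33327 in the other libraries of that group. Rps14 had 341 TPM in CAC replicate 3 at 8 weeks (others 397 to 430 TPM) and 460 TPM in CAC replicate 1 at 4 weeks (others 356 to 365 TPM), both among the libraries that stood apart by their markers. Rpl10 had 67.8 TPM in NCAC replicate 3 at 8 weeks (others 48.8 to 53.3 TPM) and 49.5 TPM in Con replicate 4 at 8 weeks (others 56.6 to 59.3 TPM). Rps27a had 330 TPM in NCAC replicate 4 at 8 weeks (others 296 to 305 TPM). Among the Con libraries, Rpl3 had 377 TPM in replicate 1 at 8 weeks (others 300 to 321 TPM), and Rps15a had 77.8 TPM in replicate 2 at 8 weeks (others 66.6 to 69.3 TPM). Con replicate 1 at 4 weeks was low in both Rpl7 (231 TPM, others 242 to 244 TPM) and Rpl7a (326 TPM, others 340 to 346 TPM). Rpl7l1 had 42.8 TPM in Con replicate 3 at 6 weeks (others 44.6 to 45.3 TPM).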

How the results depend on the processing

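The members called in CAC against Con and CAC against NCAC at 6 weeks (7 and 14), and in the same pairs at 8 weeks (8 and 4), numbered 0, 1, 1 and 0 under both TMM and median-of-ratios scaling, and 1, 3, 1 and 1 on TPM rescaled without mitochondrially encoded genes, which gave 6 in CAC and 4 in NCAC against Con at 2 weeks. With only the groups compared in the model the counts were 1 and 5 at 6 weeks, 1 in CAC against NCAC at 8 weeks and 0 in NCAC against Con at 2 weeks (1.09%, 4.33%, 1.96% and 0.0483% of all genes). Without a filter on level they were 0 in NCAC against Con at 2 weeks and 9 in CAC against NCAC at 6 weeks (3.07% and 3.56% of all genes). Without the 3 libraries that stood apart they were 2 and 5 in CAC and NCAC against Con at 2 weeks, 12 in CAC against NCAC at 8 weeks and 3 in the change from 2 to 8 weeks. Of the alternatives chosen after seeing the data, a gene-length index as a term gave 3 and 6 in CAC and NCAC against Con at 2 weeks, 16 and 34 in CAC against Con and NCAC at 6 weeks and 20 in CAC against NCAC at 8 weeks (7.78%, 15%, 2.19%, 8.02% and 6.46% of all genes in that order), and adding the copies gave 0 in NCAC against Con at 2 weeks. In no comparison did every pair of libraries with the same number correlate above 0.1, and the libraries were treated as unpaired. A single pair can fail this rule, so it cannot exclude a pairing. With the replicate number as a block, 2 members were called in CAC against Con at 2 weeks and 2 in the change from 2 to 8 weeks (4.79% and 0.731% of all genes). Leaving out single libraries gave 0 to 5 calls in CAC and 0 to 2 in NCAC against Con at 2 weeks, 0 to 17 and 5 to 20 in CAC against Con and NCAC at 6 weeks, 1 to 11 and 1 to 8 at 8 weeks, and 0 to 3 in the change from 2 to 8 weeks. For single libraries left out, here and above, the shares of all genes called are not given. Whether the members moved more than other genes is therefore not shown. For single named members, 42 of the results kept their side of the threshold and 23 lost their call under TMM. Signs turned, with values near 0, for Rpl5 in CAC against Con at 2 weeks (-0.001 on the rescaled TPM), Rps29 in CAC against Con at 4 weeks (0.004 without CAC replicate 1 or the 3 libraries; -0.214 to 0.004 over single libraries), Rpl10 in CAC against NCAC at 4 weeks (-0.003 with copies) and in the change from 6 to 8 weeks (-0.029 with copies, -0.005 without CAC replicate 3 of week 6; -0.005 to 0.096 over single libraries), and Rps26 in the change from 2 to 8 weeks (0.034 and 0.050 without CAC replicate 2 or 4 of week 8; -2.555 to 0.050 over single libraries). Robust moderation and a pseudocount of 0.1 moved no count by over 1.5 times. Neither did lane as a term at 4 weeks, but that check could show little. Its estimate rests on the 1 NCAC library of week 4 in lane 4, and no member was called at 4 weeks as deposited. The cause of these shifts was not tested. Reads per library were alike, so depth limits all groups equally; members under 1 TPM were left out by the filter on level.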
